A study of Mus musculus with 4 samples.

Results

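Brown fat thermogenic genes are 10 genes that mark brown adipocytes or run heat production in them: Ucp1, Cidea, Cox7a1, Cox8b, Dio2, Elovl3, Ppargc1a, Prdm16, Ebf2 and Cpt1b. They were found through the RefSeq accession of each array probe, which gave 12 probes of 41174 on the array and 10 genes of 18952 that could be named. Their RNA was measured in mammary glands taken at an age of 13 weeks, before tumours, from female mice. Every mouse carries the transgene Δ16HER2, which encodes a tumour-driving splice form of human HER2. The labels give the histotype as epithelial, but the glands also held fat and muscle genes at high levels, as shown further on. The arrays labelled WT (WT 1 and WT 2) come from Δ16HER2 mice with an intact stathmin gene, and those labelled STM KO (knockout 1 and knockout 2) from Δ16HER2 mice that lack stathmin, the microtubule-destabilising protein encoded by Stmn1. No array without the transgene was analysed here, and the promoter of the transgene, the design of the Stmn1 allele, the mouse strain, the gland position and any pooling of animals are not given in the sources used here. Nothing says that the samples of a group came from separate animals, so p-values measure only the spread between these samples. The question is what the loss of stathmin does to gene expression in these glands, as far as the labels state it.

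Brown adipocytes burn fat to make heat. Noradrenaline raises cAMP in them, lipid droplets release fatty acids, mitochondria oxidise these, and the uncoupling protein UCP1 lets protons leak back across the inner mitochondrial membrane so that the energy leaves as heat. In the mouse mammary gland the ducts lie in a fat pad of mostly white adipocytes, where brown-like adipocytes can also occur. In whole tissue, fewer cells of a type and less RNA per cell cannot be told apart.

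The 4 arrays lay on 1 slide and were scanned together, with the WT samples in the first positions, so the effect of position and that of genotype cannot be told apart. Levels are log2 processed signals minus each array's 75th percentile, a fold change is knockout minus WT on that scale, and a gene is represented by its brightest probe unless stated. That percentile was 144 to 191 on 3 arrays and 291 on knockout 1, and 54.7% to 66.2% of spots were well above background. Mammary epithelium was present on every array, with the luminal keratin gene Krt8 at 4.65 to 5.38. The brighter Stmn1 probe read 5.59 and 3.59 on the WT arrays and 4.56 and 3.34 on the knockout arrays, which overlap. The dimmer Stmn1 probe read -1.13 and -3.39 against -5.71 and -5.05, well above background on 1 WT array and on neither knockout array. The 2 probes differ and their place relative to the deleted part is not given in the sources used here, so the arrays are called by their labels. Lymph node genes set knockout 2 apart, with the B cell gene Ms4a1 at 3.26 there and at -5.12 to -3.57 on the other 3 arrays.

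None of the 10 genes differed between the groups past the test, and 9 of the 10 were well above background on every array, with Prdm16 the exception. Prdm16, which directs cells to the brown fat fate, had dim readings that were higher on both knockout arrays without passing, and the size of that difference depended on the background correction (log2 fold change 1.66, or 0.48 with normexp). Ucp1 and Cox8b read lower on both knockout arrays than on either WT array, and the other 7 genes overlapped. Ebf2 had a log2 fold change of 0.00 and, at this scaling, nearly equal levels on all 4 arrays, which it did not have with median scaling.

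Ucp1 encodes the uncoupling protein itself and was bright in every gland. WT 1 read 5.44, WT 2 read 5.32, knockout 1 read 4.81 and knockout 2 read 5.10. Both knockout arrays lay below both WT arrays, and knockout 1 was the lowest. The log2 fold change was -0.42 ± 0.25 (SE, n = 2 per group) with an adjusted p of 0.935 by limma and a 95% interval from -1.07 to 0.22. The processed signals before scaling were 8290 and 5761 on the WT arrays and 8179 and 5484 on the knockout arrays. On that scale the groups overlap, but it also carries the brightness of each whole array, so the overlap decides nothing. The fold change was -0.25 with median scaling, in which each array's median replaces its 75th percentile, and -0.28 without knockout 1. It was -0.57 with normexp background correction and also -0.57 without knockout 2. Under each of the 5 scalings and background corrections compared, both knockout arrays stayed below both WT arrays.

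Cox8b encodes the subunit VIIIb of cytochrome c oxidase, an isoform of brown fat, heart and skeletal muscle. It read 6.50 and 6.33 on the WT arrays and 5.82 and 6.22 on the knockout arrays. Again both knockout arrays were below both WT arrays, with knockout 1 the lowest. Its log2 fold change was -0.40 ± 0.27 (SE, n = 2 per group, limma adjusted p = 0.935). It was -0.22 with median scaling, -0.20 without knockout 1 and -0.60 without knockout 2.

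The stretches of 250 bases before the RefSeq start sites of these genes (GRCm38.p6) are shown for Ucp1 and Cox8b, whose knockout arrays both lay below the WT arrays, and for Dio2 and Prdm16, whose levels over the arrays were least like those of Ucp1 at this scaling. The Ucp1 stretch is chr8:83290098-83290347 (+), that of Cox8b chr7:140900447-140900696 (-), that of Dio2 chr12:90739039-90739288 (-) and that of Prdm16 chr4:154636874-154637123 (-). Capitals mark matches on either strand to the TATA box TATAAA, the cAMP response element TGACGTCA or the nuclear receptor hexamer AGGTCA.
Ucp1: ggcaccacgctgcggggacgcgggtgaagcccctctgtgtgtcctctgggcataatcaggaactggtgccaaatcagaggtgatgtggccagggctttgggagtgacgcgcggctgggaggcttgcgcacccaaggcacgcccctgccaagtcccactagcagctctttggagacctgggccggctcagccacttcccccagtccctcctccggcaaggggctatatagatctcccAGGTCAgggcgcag
Cox8b: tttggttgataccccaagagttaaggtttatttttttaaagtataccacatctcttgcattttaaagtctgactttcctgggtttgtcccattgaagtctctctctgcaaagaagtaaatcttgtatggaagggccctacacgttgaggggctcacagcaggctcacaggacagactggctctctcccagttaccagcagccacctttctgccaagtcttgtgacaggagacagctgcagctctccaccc
Dio2: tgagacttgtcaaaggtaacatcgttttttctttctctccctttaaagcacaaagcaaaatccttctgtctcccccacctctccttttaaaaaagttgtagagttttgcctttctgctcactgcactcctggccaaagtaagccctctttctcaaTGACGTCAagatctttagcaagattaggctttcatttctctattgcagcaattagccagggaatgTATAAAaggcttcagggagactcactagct
Prdm16: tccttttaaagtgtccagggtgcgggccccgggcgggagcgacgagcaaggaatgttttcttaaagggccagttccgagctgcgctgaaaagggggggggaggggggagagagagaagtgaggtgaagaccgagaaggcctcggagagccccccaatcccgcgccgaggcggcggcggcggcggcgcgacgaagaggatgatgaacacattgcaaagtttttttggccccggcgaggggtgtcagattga
In Ucp1 the hexamer AGGTCA lay at -14 to -9 from the start site, and 14.0% of all 32851 such stretches hold it. In Dio2 the cAMP response element lay at -95 to -88 and the TATA box at -30 to -25, elements that 1.55% and 12.4% of stretches hold. The PPAR and RXR direct repeat, which is a pair of these hexamers with a spacer of any base, and the palindrome bound by EBF factors were searched too and occur in 0.0335% and 0.779% of stretches. Neither matched in the 6 members with a RefSeq promoter entry, the 4 printed and Ppargc1a and Cox7a1, and of these only Ucp1 and Dio2 held any match to the searched letters. The Prdm16 stretch held 62.4% G and C with 22 CpG pairs, the Dio2 stretch 41.6% with 2, and the median stretch 52.4% with 6. A match in letters is a description and not a site of binding.

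Cox7a1 encodes the muscle and brown fat isoform of subunit VIIa of cytochrome c oxidase. It read 7.63 and 7.27 on the WT arrays and 7.33 and 7.90 on the knockout arrays. The groups overlapped, with the highest and the second lowest reading in the knockout group. The log2 fold change was 0.16 ± 0.31 (SE, n = 2 per group, limma adjusted p = 0.960), and it was -0.13 without knockout 2 and 0.44 without knockout 1. With median scaling it was 0.33 and both knockout arrays lay above both WT arrays.

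Cpt1b encodes the muscle-type carnitine palmitoyltransferase, which brings long-chain fatty acids into mitochondria. Its brighter probe read 4.50 and 4.43 on the WT arrays and 3.93 and 4.61 on the knockout arrays. Knockout 1 was the lowest array and knockout 2 the highest, so the groups overlapped. The log2 fold changes of its probes were alike, -0.20 ± 0.32 for the brighter and -0.21 ± 0.27 for the dimmer (SE, n = 2 per group). The fold of the brighter probe was 0.14 without knockout 1, -0.54 without knockout 2 and -0.02 with median scaling.

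**Figure D1:**
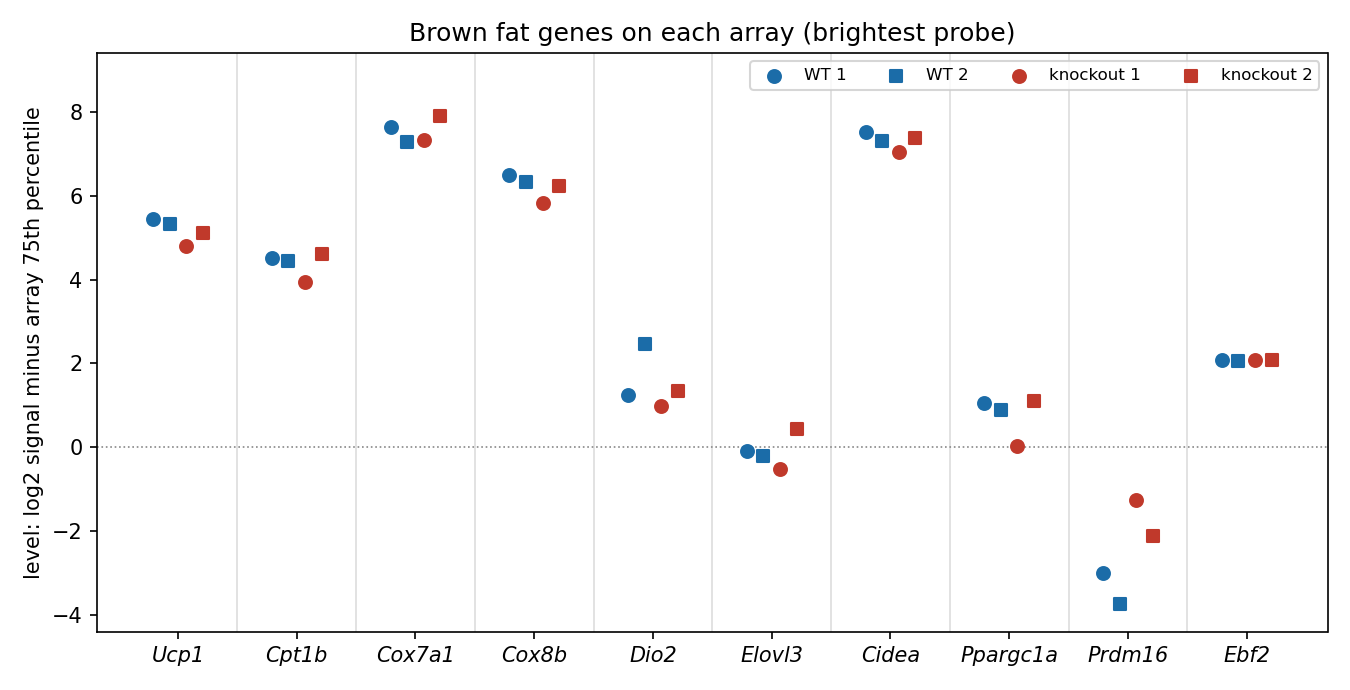
Level of each brown fat gene on each array (vertical axis, log2 processed signal minus the array's 75th percentile, brightest probe), with WT in blue, knockout in red, replicate 1 as circles and replicate 2 as squares. Heights of different genes are different probes and are not comparable, and within a gene Prdm16 has both knockout points above both WT points while Ucp1 and Cox8b have them below.

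Dio2 encodes the type 2 deiodinase, which makes the active thyroid hormone inside brown adipocytes and is induced by cAMP. It read 1.24 and 2.47 on the WT arrays and 0.99 and 1.35 on the knockout arrays. WT 2 stood above the other 3 arrays, which lay within a narrow band, and the groups overlapped. The log2 fold change was -0.69 ± 0.46 (SE, n = 2 per group, limma adjusted p = 0.935). It was -0.07 without WT 2 and -1.30 without WT 1.

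Cidea encodes a lipid droplet protein of brown adipocytes that is also known in the lactating mammary epithelium. It read 7.52 and 7.31 on the WT arrays and 7.04 and 7.38 on the knockout arrays. Knockout 2 lay between the WT arrays, and the log2 fold change was -0.21 ± 0.27 (SE, n = 2 per group, limma adjusted p = 0.940). It was -0.03 with median scaling, -0.04 without knockout 1 and -0.38 without knockout 2. All 12 tested milk secretion genes read lower on average in the knockout group, at a median log2 fold change of -1.09, and the casein gene Csn2 read 5.29 and 3.26 on the WT arrays against 0.10 and 0.67. Cidea had a smaller difference than that median, and the part of the secretory epithelium in its level was not tested.

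Elovl3 encodes an elongase of very long chain fatty acids, induced in brown fat by cold and also known in sebaceous glands of the skin. It read -0.10 and -0.22 on the WT arrays and -0.52 and 0.43 on the knockout arrays. The knockout arrays held both the lowest and the highest reading, and the log2 fold change was 0.11 ± 0.38 (SE, n = 2 per group, limma adjusted p = 0.977). It was 0.58 without knockout 1 and -0.36 without knockout 2, and 0.29 with median scaling, where both knockout arrays lay above both WT arrays. Skin and sebaceous gland genes had a summed level (signal over the 75th percentile, added over 7 tested genes) of 9.05 on WT 1 and 1.47 to 2.24 on the other arrays, and on no array were the sebaceous genes Awat2, Mc5r and Scd3 well above background. The Elovl3 reading on WT 1, -0.10, was below that on knockout 2 and above the rest, and the part of skin in its level was not tested.

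Among the transcription regulators, Ppargc1a encodes PGC-1α, the coactivator that drives mitochondrial biogenesis and Ucp1 transcription. It read 1.05 and 0.89 on the WT arrays and 0.03 and 1.09 on the knockout arrays. Knockout 1 alone was low, and its second probe read 0.46 and 0.91 on the WT arrays and -0.03 and 1.06 on the knockout arrays. The log2 fold change of the brighter probe was -0.41 ± 0.41 (SE, n = 2 per group, limma adjusted p = 0.935) and that of the dimmer was -0.17 ± 0.43. The fold of the brighter probe turned to 0.12 without knockout 1 and was -0.94 without knockout 2 and -0.24 with median scaling.

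Prdm16 encodes a zinc finger regulator that switches precursors to the brown fat fate. It read -2.99 and -3.72 on the WT arrays and -1.27 and -2.12 on the knockout arrays. Both knockout arrays lay above both WT arrays, and the arrays within a group differed by 0.74 (WT) and 0.85 (knockout). The log2 fold change was 1.66 ± 0.42 (SE, n = 2 per group), with a 95% interval from 0.60 to 2.73, an unadjusted p of 0.00973 and an adjusted p of 0.935 by limma. These are dim readings, with processed signals of 24.1 and 10.9 on the WT arrays against 121 and 36.8 on the knockout arrays. WT 2 was not well above background, so the fold uses its reading as it stands. Only the knockout group, where Prdm16 is high, had both arrays well above background, so Prdm16 was tested through that group alone. With normexp background correction, which adds an offset of 50 to every corrected signal, the log2 fold change was 0.48 ± 0.24 (SE). Without that correction it ran from 1.24 to 2.09 when 1 array was left out. Prdm16 lies on chromosome 4 like Stmn1, with 288 protein-coding genes between them in RefSeq, and whether that bears on its reading was not tested.

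Ebf2 encodes a factor that marks brown and beige precursors and recruits PPARγ to brown fat genes. It read 2.09, 2.06, 2.09 and 2.07 on WT 1, WT 2, knockout 1 and knockout 2. Of 13234 tested genes, 2 had a range over the 4 arrays as small as this, Ebf2 included. That flatness belongs to this scaling. The processed signals were 813 and 604 on the WT arrays and 1240 and 672 on the knockout arrays, and with median scaling the range was 0.55, which 2840 genes did not exceed. The log2 fold change was 0.00 ± 0.24 (SE, n = 2 per group, limma adjusted p = 0.999), and its 95% interval from -0.59 to 0.60 rests on the spread that limma borrows from all genes. The fold moved to 0.18 with median scaling, under which all tested genes had a median of 0.17, and to -0.15 with normexp background correction.

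The members differed in how far their levels spread over the 4 arrays. Cidea, Cox7a1, Ucp1, Cpt1b and Cox8b, the bright genes of heat production and lipid handling, had ranges of 0.49 to 0.68, which lay at 34.6% to 55.3% of tested genes in order of range. Elovl3, Ppargc1a and Dio2 ranged over 0.95, 1.06 and 1.48, and Prdm16 over 2.46, which 97.6% of tested genes did not exceed. The WT arrays differed by 1.23 for Dio2, and the knockout arrays by 0.95 for Elovl3 and 1.06 for Ppargc1a. These differences within a group were larger than the difference between group means for each of the 3 genes. With median scaling the ranges of the 5 bright genes were 0.15 to 0.46.

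Read against all genes, the 10 members did not stand out in number of calls. At an adjusted p under 0.05, limma called 0 members and 0 of 13234 tested genes (0%). At an unadjusted p under 0.05, the higher side held 1 member, Prdm16, and 1.14% of all tested genes. The lower side held 0 members and 2.4% of all genes. Prdm16 entered the test only through the knockout group, where it is high, so its place on the higher side is no support for a difference. Both knockout arrays lay above both WT arrays for 1 member and 17.8% of all genes, and below them for 2 members and 17.7% of all genes. With median scaling they lay above for 3 members and 20.0% of all genes, and below for 2 members and 7.77%. Fold changes were above 0 for 4 members and below 0 for 6 (median -0.20), against 6526 and 6708 of all tested genes (median -0.01). The median of the members was 0.06 without knockout 1 and -0.46 without knockout 2. For 9 of the 10 members the 95% interval included 0, which does not show that their levels were alike.

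**Figure D2:**
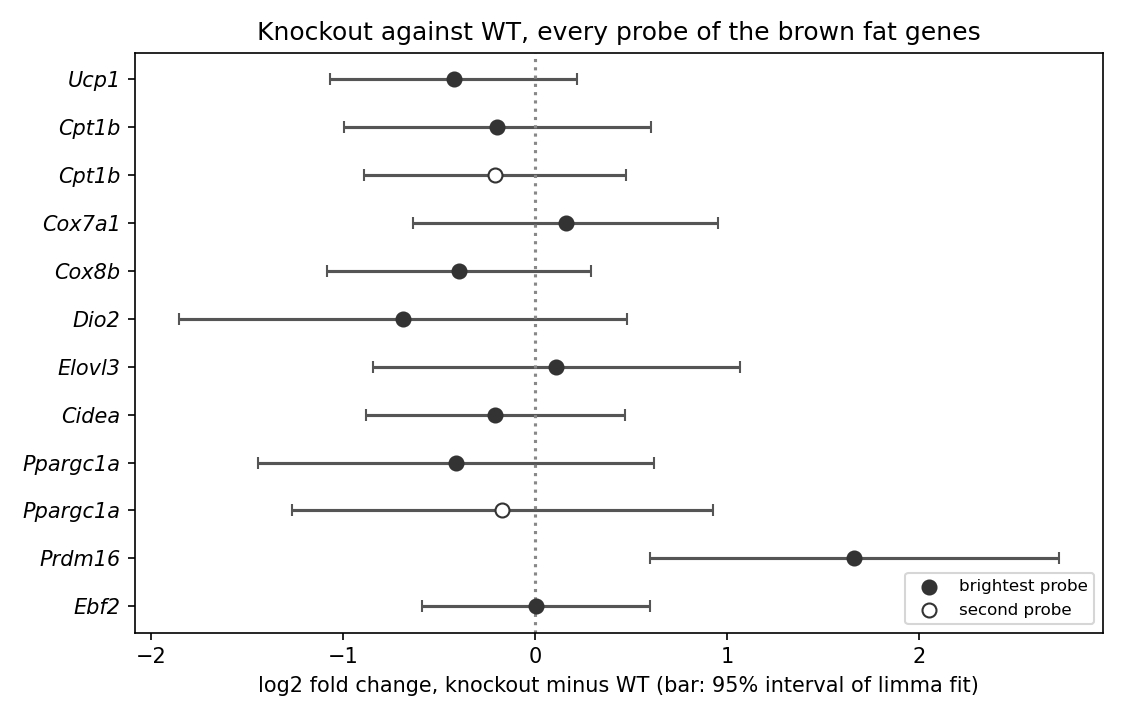
Log2 fold change of each of the 12 probes (horizontal axis, knockout minus WT; points, filled for the brightest probe of a gene and open for the second; bars, 95% interval of the limma fit over 4 arrays). The interval of Prdm16, from 0.60 to 2.73, lies above 0 and the others include 0, and no probe passed the adjusted threshold. Prdm16 was tested only through the knockout group, where it is high.

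Which array read lowest depended on the scaling. With the 75th percentile, 7 of the 10 genes had their lowest level on knockout 1, against 30.2% of all tested genes, and the other 3, Cox7a1, Prdm16 and Ebf2, had it on WT 2. With median scaling, 2 of the 10 had it on knockout 1, Cpt1b and Ppargc1a, against 8.40% of all tested genes. With quantile normalization 6 had it there, against 22.0%. The percentile over detected probes put 7 there, against 32.1%, and normexp background correction put 6 there, against 36.6%. Added over the members, signal over the 75th percentile came to 549 and 467 on the WT arrays and to 400.2 and 548 on the knockout arrays. Knockout 1 is also the array with the highest 75th percentile, and the processed signals of Ucp1, Cox8b, Cidea and Cpt1b before scaling were not lowest there. Signals before scaling also carry the brightness of the whole array. The part of the scaling in these readings was not tested.

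Skeletal muscle expresses Cox7a1, Cox8b, Cpt1b and Ppargc1a too, and its contractile genes were bright on all arrays, with the fast myosin gene Myh4 at 7.43, 7.57, 6.94 and 7.23 in the order WT 1, WT 2, knockout 1 and knockout 2. Of 26 muscle genes tested, 22 had fold changes below 0 (median over all 26 of -0.39), and 17 had their lowest level on knockout 1. Their mean level, centred on the 4-array mean, was 0.55 and -0.08 on the WT arrays and -0.16 and -0.31 on the knockout arrays, so it was lowest on knockout 2. Their summed level, which the brightest genes dominate, was 2376 and 2031 on the WT arrays and 1458 and 2143 on the knockout arrays, lowest on knockout 1. Of all tested genes, 30.2% were lowest on knockout 1 with the 75th percentile and 8.40% with median scaling. With median scaling 10 of the 26 muscle genes were lowest on knockout 1. The slow myosin gene Myh7, named after its values were seen, read 6.08 and 5.38 on WT 1 and knockout 1 and 3.21 and 1.84 on WT 2 and knockout 2. The ubiquitous respiratory chain genes were also lowest on knockout 1 for 17 of 28 genes (4 of 28 with median scaling), with a summed level of 2125 and 2115 on the WT arrays and 1768 and 2209 on the knockout arrays. The part of muscle in the readings of the shared members was not tested.

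Of 19 white adipocyte genes tested, 10 were lowest on WT 1 and 7 on knockout 1, against 26.7% and 30.2% of all tested genes. With median scaling 14 of the 19 were lowest on WT 1, against 39.2% of all tested genes. Centred on its own 4-array mean, the mean level of the white fat genes read -0.39 and 0.27 on the WT arrays and 0.17 and -0.04 on the knockout arrays. That of the brown fat genes read 0.06 and -0.02, then -0.21 and 0.17. The lowest mean was on WT 1 for white fat and on knockout 1 for brown fat. With median scaling it was on WT 1 for both, at -0.55 for white fat and -0.10 for brown fat. The other brown fat means were then -0.03 on WT 2, 0.14 on knockout 1 and -0.01 on knockout 2. Dim Prdm16 raised that knockout 1 mean, with median-scaled levels of -0.22 and -0.81 on the WT arrays and 2.02 and 0.63 on the knockout arrays. Nnat, an imprinted gene on in white adipocytes, read 0.89 on WT 1, below the other arrays, of which WT 2 was highest at 4.32, while the fat cell gene Fabp4 read 7.98, 8.25, 7.34 and 8.04 in array order. Lymph node genes had a summed level of 73.8 on knockout 2 and 1.78 to 2.14 on the other arrays. Luminal epithelium genes were lowest on knockout 2 for 12 of 16, against 22.3% of all tested genes. With median scaling 13 of the 16 were lowest on knockout 2, against 36.8%. Cox7a1, Cpt1b, Elovl3 and Ppargc1a had their highest level on knockout 2, as did 25.8% of all tested genes. These members were highest there with median scaling too. Cpt1b was highest on WT 1 with quantile normalization, and Cox7a1 was with normexp background correction. Whether the other cells of knockout 2 bear on these members was not tested.

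**Figure D3:**
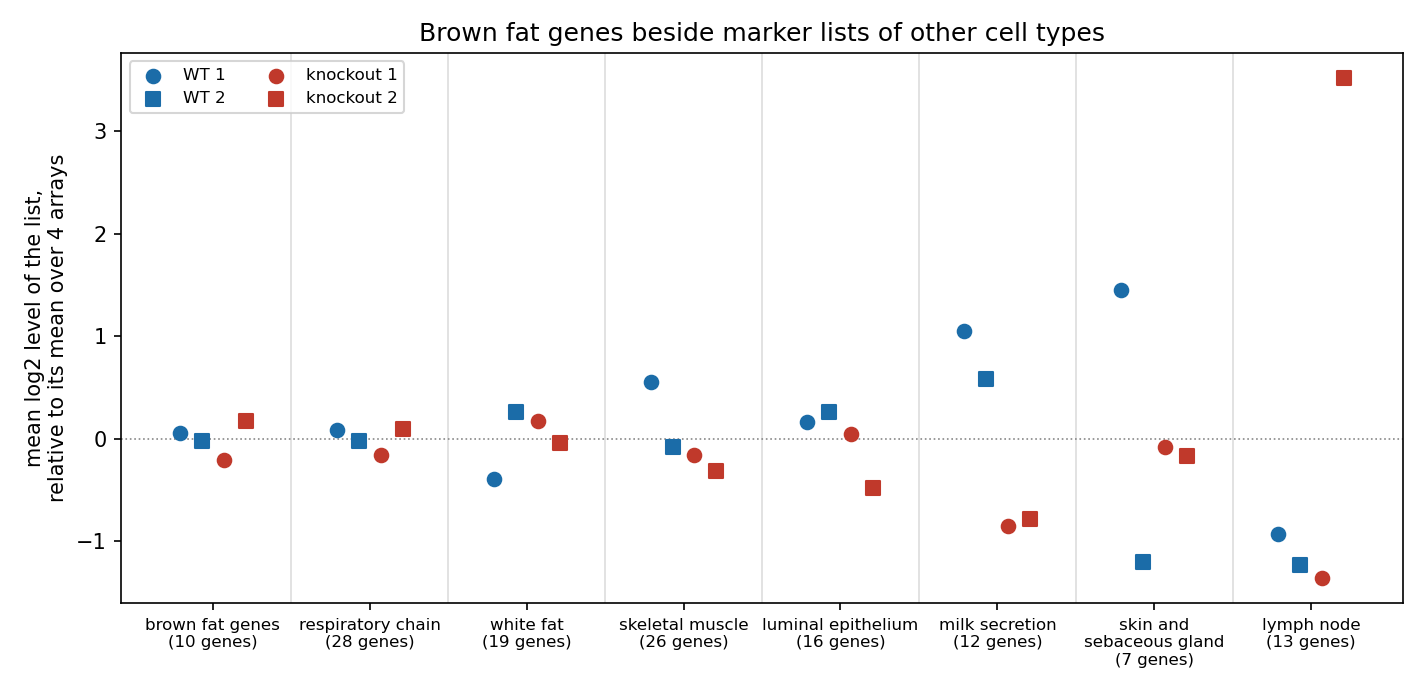
Mean log2 level (75th percentile scaling) of each gene list on each array relative to the list's mean over the 4 arrays (vertical axis), with WT in blue, knockout in red, replicate 1 as circles, replicate 2 as squares and the number of tested genes under each list. The brown fat means stay between -0.21 and 0.17, and they include dim Prdm16, which is highest on knockout 1 where that mean is lowest. The lymph node genes reach 3.52 on knockout 2, and milk secretion genes are the list with both knockout arrays furthest below both WT arrays.

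Relatives of the members, many of which serve a like role in other cells, did not pass the test either. Cox7a2, the ubiquitous form beside Cox7a1, read 6.31 and 6.38 on the WT arrays and 5.89 and 6.35 on the knockout arrays, and Cox8a, the ubiquitous form beside Cox8b, read 7.33 and 7.44 against 7.12 and 7.32. Their log2 fold changes were -0.22 ± 0.28 and -0.17 ± 0.25 (SE, n = 2 per group). Cox7a2, like Cox8b, was lowest on knockout 1, and so was Cox8a. For Cox8a, as for Cox8b, both knockout arrays lay below both WT arrays. A dimmer Cox7a2 probe had a log2 fold change of -0.45 ± 0.31 (SE), with overlapping groups. The brightest relatives of Ucp1, Cidea and Cpt1b were Ucp2, a related mitochondrial carrier, Cidec, the white fat droplet protein, and Cpt1a, the liver form, with log2 fold changes of -0.20, -0.21 and -0.08. Elovl6, the elongase of de novo fatty acid synthesis, read 4.59 and 3.37 on the WT arrays against 4.88 and 5.07, with a fold change of 0.99 ± 0.45 (SE, limma adjusted p = 0.935), where Elovl3 had 0.11. Mecom, the relative of Prdm16, had 0.29 ± 0.28 on its brightest probe and -0.30 ± 0.26 on a dim one that was well above background on neither WT array. Its difference from Prdm16 was not tested. Ppargc1b and Ebf3 had 0.03 and 0.06, and on no array was Dio3, which inactivates thyroid hormone, well above background.

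The wider thermogenic pathway gave no call either. Of the list of receptors, kinases and hormones that signal to brown fat, 11 of 17 tested genes had fold changes above 0 and 6 below (median 0.19). The median was 0.36 with median scaling, 0.03 with normexp background correction and 0.00 without WT 1. The β3-adrenergic receptor gene Adrb3, the main noradrenaline receptor of fat cells, had no named probe and was not analysed here. Of the brown fat transcription factors 13 of 20 were positive, with a median of 0.02. Of the effector genes 18 of 34 were positive with a median of 0.01, and of the relatives 8 of 17 with a median of -0.04. None of these genes passed an adjusted p of 0.05 by limma. At an unadjusted p under 0.05 there were 0 higher and 2 lower effector genes of 34, 1 lower relative of 17 (against 2.4% of all tested genes on the lower side), and none among the signalling genes or transcription factors.

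The 2 effector genes were Gatm and Ckmt1. Gatm, which makes the creatine precursor, read -0.10 and 0.00 on the WT arrays and -0.85 and -0.99 on the knockout arrays, which is a difference of -0.87 ± 0.24 on the log2 scale (SE, n = 2 per group, limma adjusted p = 0.935). Ckmt1, a mitochondrial creatine kinase that epithelial cells express as well, read 0.86 and 0.40 against -0.07 and -0.64, with a fold change of -0.98 ± 0.33 (SE, n = 2 per group, limma adjusted p = 0.935). Both knockout arrays lay below both WT arrays for each gene. The relative was the elongase gene Elovl7, at 1.48 and 0.79 against 0.27 and 0.09, with -0.96 ± 0.32 on this probe. A dimmer Elovl7 probe had -1.54 ± 0.80 (SE), with knockout 2 at -4.90 and not well above background. Of luminal epithelium genes 14 of 16 had fold changes below 0 (median over all 16 of -0.36), and their part in Ckmt1 and Elovl7 was not tested. Lhx8 and Zic1, markers of classical brown fat chosen here for that role after their values were seen, had no common pattern. Lhx8 read from 0.44 on WT 1 to 1.14 on knockout 1, and Zic1 read -0.80, -4.82, -1.96 and -3.10 with WT 2 not well above background.

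The profile of Ucp1 over the 4 arrays was compared with that of 13233 other tested genes by the root mean square difference of levels centred on each gene's mean. The 5 closest genes were Dclre1c, Khdrbs3, Rbm15, Pam and 1500011B03Rik, at 0.0218 to 0.0273. Among the members, Cox8b was closest at 0.0459, which ranked 34, and Cidea followed at 0.115 with rank 406. With normexp background correction Cox8b ranked 3059 and Ebf2, at rank 681, was the closest member. Prdm16 was furthest at 1.14, and Dio2 came next at 0.496. With 4 arrays many genes come this close, and the 100 closest held 1 gene each from the members, the relatives and the muscle, white fat, respiratory chain and blood vessel lists, so the measure describes these arrays.

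**Figure D4:**
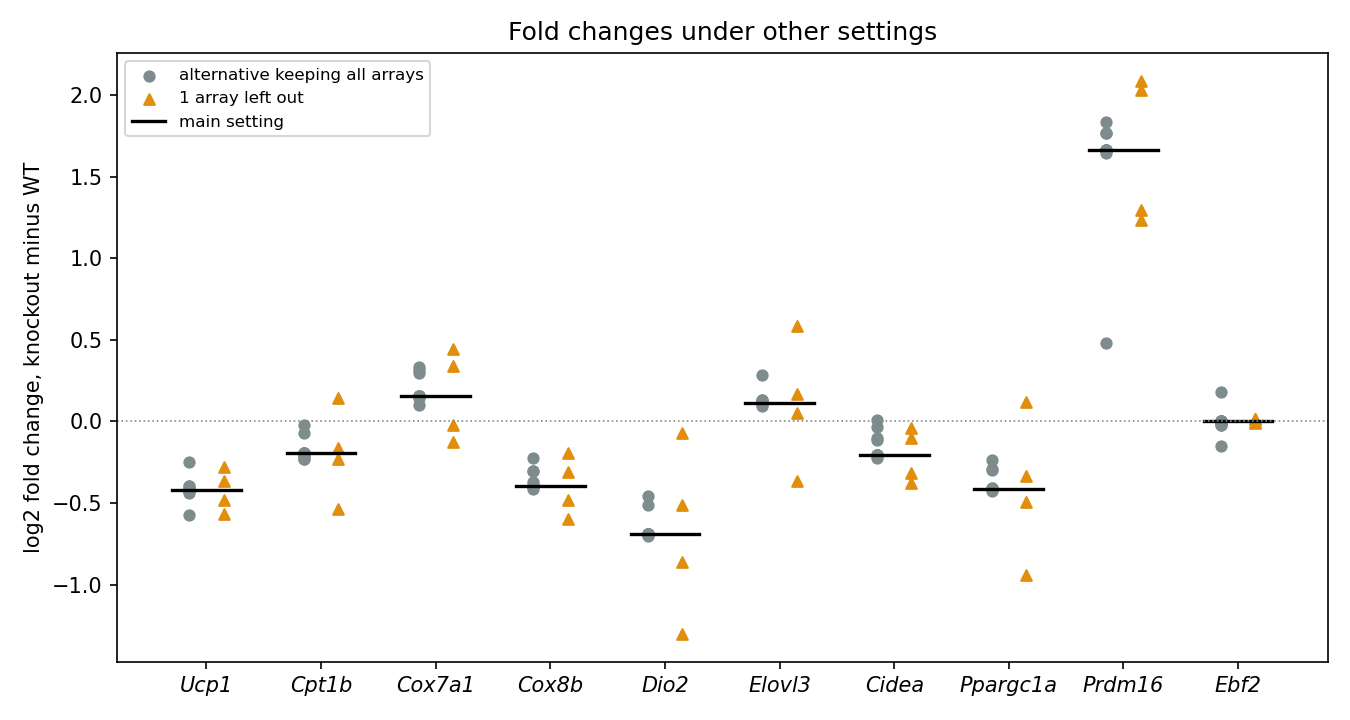
Log2 fold change of each brown fat gene (vertical axis, knockout minus WT) under the main setting (black bar), under alternatives that keep all arrays (grey circles) and with 1 array left out (orange triangles). Ucp1, Cox8b and Dio2 stay below 0 and Prdm16 above 0 under every setting drawn, while Cidea, Cox7a1, Cpt1b, Elovl3, Ppargc1a and Ebf2 cross 0 under at least 1.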

How the data were processed

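Total RNA of 4 mammary gland samples was labelled with Cy3 and hybridised to 1-colour Agilent arrays. The authors deposited spot intensities, background-subtracted within each array by Agilent Feature Extraction (11.5.1.1 in the file headers, 10.7.3.1 in the submitters' processing notes), and a table of log2 values. The series' design text names GeneSpring for the bioinformatics, without saying how that table was made. That deposited log2 table matched quantile-normalized signals less the probe median (Pearson r across probes of 0.99999 or more), with column medians of -0.0180, 0.0183, 0.00626 and -0.00960 in the order WT 1, WT 2, knockout 1 and knockout 2, and served as an alternative.

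The 75th percentile of an array was subtracted from its log2 processed signals, leaving out control spots and outlier spots. Probes well above background on both arrays of a group were tested (24183 of 41174). RefSeq accessions (GRCm38.p6) named 27816 probes. The test was limma's (3.58.1, R 4.3.3), with p-values adjusted by Benjamini-Hochberg over tested probes. It was also run on simulated data with planted changes and independent noise for each probe. Those data held no differences shared by many probes of an array, so they do not show how the test behaves with them. The text names all members, pathway genes with an unadjusted p under 0.05 (up to 3 per list and direction), the brightest relative of each member and the 5 genes most like Ucp1. Members and lists were chosen with earlier results of these data known. The files hold no mean spot signal, so normexp used median signals. The description label names EOC cells, which differs from the tissue and source labels, and was not used. The patterns over single arrays were recomputed under the other scalings, a choice made after seeing the data. The number of arrays limits the precision of every value.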

Additional observations from a re-analysis of the deposited data

How the results depend on the processing

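The results were recomputed under 16 alternatives. No member passed an adjusted p of 0.05 under any of them, nor of 0.1. Alternatives that change only the filter, the variance prior, the block or the threshold use the main levels, so their member folds could not move. The same holds for the mean of tested probes where a member has 1 tested probe, and the deposited table nearly repeats quantile normalization. With these included, of 119 member fold changes under alternatives with no array left out, 114 held their sign and stayed outside the threshold. The other 5 reversed, Cidea to 0.0099 and Ebf2 to -0.15 with normexp background correction, and Ebf2 to -0.024 with quantile normalization, -0.0237 in the deposited table and -0.0097 with the percentile over detected probes. With well above background required on all arrays, Prdm16 was not tested. All named genes called lower numbered 5 with median scaling and 0 in the main fit, and the cause was not tested. Median scaling moved the medians to 0.36 for signalling genes, 0.20 for transcription factors, 0.18 for effectors and 0.13 for relatives, as it moved that of all genes. The signalling median was 0.025 with normexp and 0.0881 with the mean of tested probes, and the relatives' median was 0.0551 with normexp and -0.18 without a filter on dim probes. Leaving out 1 array assumes that the lone array varies like the others, and gave fold changes from -0.13 to 0.44 for Cox7a1, -0.36 to 0.58 for Elovl3, -0.94 to 0.12 for Ppargc1a, -0.0062 to 0.0159 for Ebf2 and -0.54 to 0.14 for Cpt1b. Those of Ucp1 ran from -0.57 to -0.28, Cox8b from -0.60 to -0.20, Cidea from -0.38 to -0.04, Dio2 from -1.30 to -0.07 and Prdm16 from 1.24 to 2.09. The medians then ran from -0.46 to 0.0585 for members, -0.00018 to 0.23 for signalling genes, -0.16 to 0.0677 for transcription factors, -0.04 to 0.11 for effectors and -0.14 to 0.0877 for relatives. With the replicate number as a block, 0 members and 0 genes were called and Prdm16 kept 1.66 ± 0.28 (SE). Deviations of same-numbered arrays correlated at 0.06, and nothing in the labels says that a number links arrays. Signal over background limits Prdm16 most, at 10.9 on WT 2.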
